A study of Drosophila melanogaster with 11 samples.

Results

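The dosage compensation machinery of Drosophila melanogaster was followed through 9 genes, msl-1, msl-2, msl-3, mof, mle, Clamp, JIL-1, Unr and Trf2. Every probeset that the platform annotation assigns to only 1 of these genes was taken, which gave 10 probesets, 2 for msl-3 and 1 for each of the others. They are 10 of 18769 tested probesets and 9 of 11983 annotated genes. None of the 10 probesets is shared with a second gene.

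The study asked what heterochromatin protein 1 (HP1) does in male and in female larvae, using 11 single-channel Affymetrix arrays of RNA from entire third-instar larvae. All larvae were y w and fell into 3 genotypes of each sex. The act-Gal4 control (+/act-Gal4) carried only a Gal4 driver under an actin promoter, which is active in most tissues. The P control (HP1-21/+) carried only the line named HP1-21, known from the study as a Gal4-responsive HP1 RNA interference line and called P in the array titles. P/act-Gal4 larvae (HP1-21/act-Gal4) carried both and are the knockdown. Each group had 2 arrays, except P/act-Gal4 females with 1. The knockdown rests on 1 named line and a broadly active driver, in whole animals. Age beyond the larval stage is not given in the sources used here.

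Male flies have a single X chromosome, and the male-specific lethal (MSL) complex raises transcription from it. MSL2, made only in males, assembles on the scaffold MSL1 together with the chromodomain protein MSL3, the acetyltransferase MOF, the RNA helicase MLE and the noncoding roX RNAs. In females the RNA-binding proteins Sxl and Unr repress translation of msl-2 mRNA, so much of the sex difference in this machinery is set after transcription. The roX1 and roX2 RNAs were not analysed here.

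Levels below are log2 of the deposited RMA intensity (RMA is a standard normalization and summary of Affymetrix probes), and a change is a difference of such levels with its standard error. Calls are limma tests with an adjusted p under 0.05. Levels are compared between arrays for the same probeset, not between genes. HP1 RNA, the target, fell by 0.53 ± 0.09 in P/act-Gal4 males against both controls (adjusted p = 0.00124). Its mean was 7.68 there, 8.05 in P males and 8.37 in act-Gal4 males. These 2 controls differed from each other by 0.32 ± 0.11 (adjusted p = 0.0674). In P/act-Gal4 females HP1 RNA differed by -0.0017 ± 0.12 (adjusted p = 0.994), so the female comparison has no measured loss of HP1 RNA on its 1 array. Replicate arrays showed a median absolute difference of 0.0925 to 0.135 per probeset. The median level of an array was 3.93 to 3.97 for males and 3.76 to 3.81 for females.

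Tissue markers differed between the groups. Summed intensity of 11 testis markers was 2204 to 2721 in control males, 117 to 139 in control females, 2580 to 2611 in P/act-Gal4 males and 200.2 in the P/act-Gal4 female. In males, 6 hemocyte markers summed to 673 to 679 with act-Gal4 alone, 198 to 203 with P alone and 470 to 472 with both. In the same groups, 5 salivary gland markers summed to 42411 to 42746, 31992 to 32194 and 30272 to 30455, and 5 measured nervous system markers to 241 to 251, 359 to 370 and 370 to 386. Their 2 measured muscle markers summed to 993 to 1030, 597 to 634 and 481 to 502, and 3 fat body markers to 22083 to 22171, 17720 to 17946 and 20268 to 20978. The P/act-Gal4 female had a muscle sum of 335, against 687 to 908 in control females, with 2 of 2 markers called lower. Its salivary gland sum was 38635 against 24873 to 33618 in control females (4 of 5 markers called higher), and its fat body sum 26158 against 14780 to 25983 (2 of 3 called higher). Its hemocyte sum of 394 lay within the 340 to 1074 of control females (2 of 6 called lower), as did its nervous system sum of 391 within 318 to 432 (1 of 5 called higher). Of the 11 testis markers, 10 were called higher in males among controls, and 6 were called lower and 2 higher in P/act-Gal4 males than in control males. Testis markers aly, can, topi, comr, twe and dj were at or below background in both groups of control females, as were aly, comr and twe in act-Gal4 males, while none of the hemocyte and salivary gland markers was in any group. The part of these shifts in the results below was not tested, and in whole larvae fewer cells of a type and less RNA per cell cannot be told apart.

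With these shifts present, 5 of the 10 probesets were called between P/act-Gal4 and control males, where 29.2% of all tested probesets were. JIL-1, the second msl-3 probeset and mle were higher, and Clamp and the first msl-3 probeset lower. Among all tested probesets 16.3% were called higher and 12.9% lower. The median change was 0.08 over the 10 probesets and -0.03 over all tested. In females 3 of the 10 were called, all higher (JIL-1, Trf2 and msl-1), where 15.9% of all tested probesets were called and 9.2% were called higher. The median change there was 0.26 over the 10 and -0.04 over all tested. An unadjusted p under 0.05 was reached by 6 of the 10 in males and 4 in females.

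Between control males and control females, 5 of the 10 probesets were called, all higher in males, namely Trf2, the first msl-3 probeset, msl-2, mof and Clamp. Over all tested probesets 60.7% were called, 16.3% higher and 44.4% lower in males. The median difference was 0.13 over the 10 and -0.17 over all. With only the brightest probeset of each gene, the median over the 9 genes was -0.05, with 4 called, all higher in males. When the arrays were shifted to a common median, the median over all probesets moved to -0.33, and the split of calls went from 3058 higher and 8340 lower to 2455 higher and 13539 lower. Under that shift 9 of the 10 were called. JIL-1, Unr, mle, msl-1 and the second msl-3 probeset were then lower in males, by -0.34, -0.38, -0.33, -0.27 and -0.21, and Clamp lost its call at 0.14 (adjusted p = 0.0627).

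**Figure D1:**
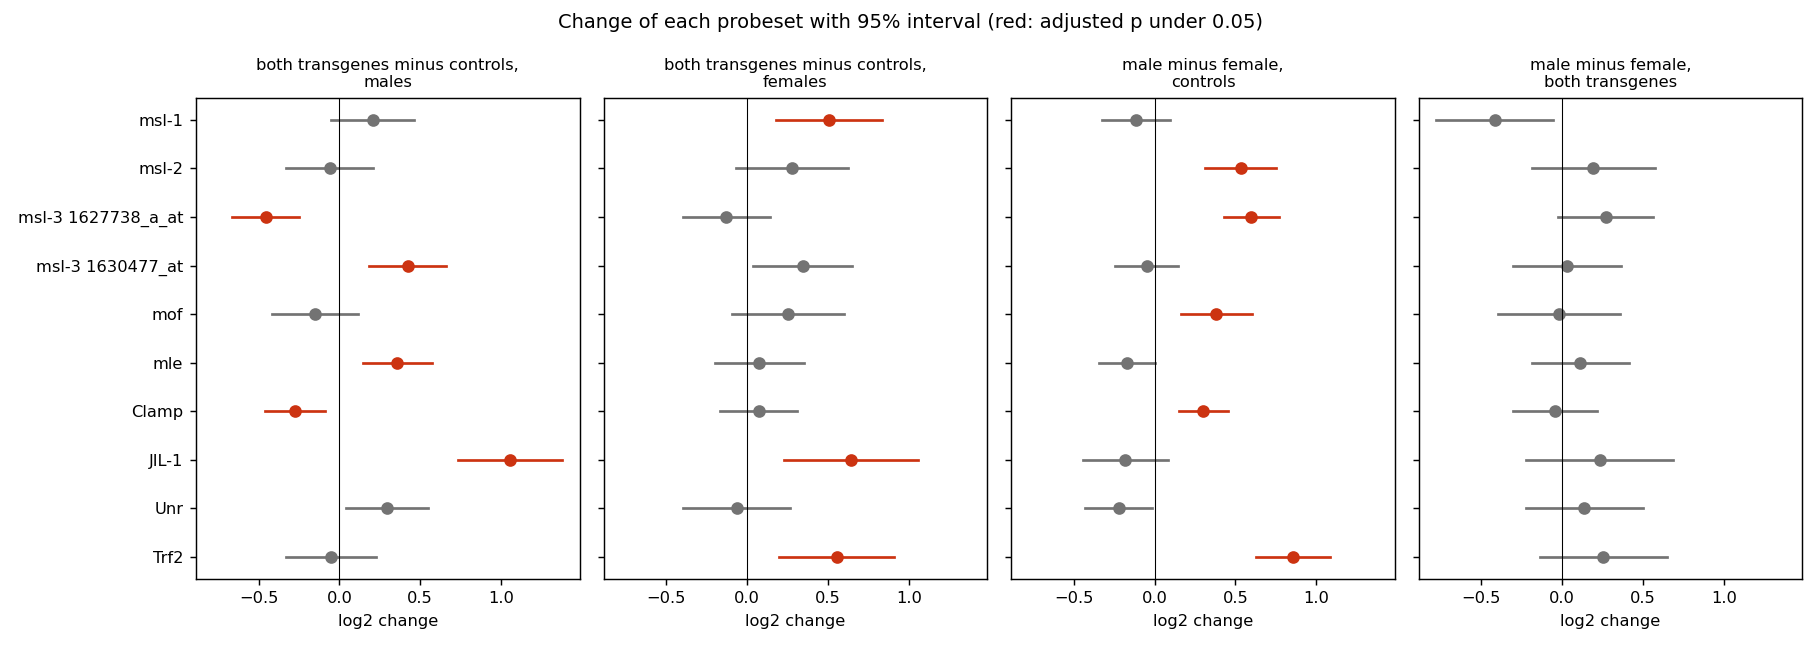
Log2 change of each of the 10 probesets (points) with its 95% interval (lines) in 4 comparisons, red where the adjusted p was under 0.05. JIL-1 lies farthest to the right in males with both transgenes, at 1.06, and Trf2 in the comparison of control males with control females, at 0.86. No point is red between males and females with both transgenes.

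The scaffold gene msl-1 (chromosome arm 2L) had levels of 4.49 and 4.50 in act-Gal4 males, 4.07 and 4.19 in P males and 4.35 and 4.68 in P/act-Gal4 males. The female arrays read 4.57 and 4.35, 4.25 and 4.54, and 4.94. The P/act-Gal4 female array was above every other array, and among males the P control arrays were lowest. In females msl-1 rose by 0.51 ± 0.15 with both transgenes, 1.42-fold (adjusted p = 0.0402), and differed by 0.48 from act-Gal4 females only (adjusted p = 0.0876). In males the change was 0.21 ± 0.12 (adjusted p = 0.231), and the change in males minus that in females was -0.30 ± 0.19 (adjusted p = 0.386). The control sexes differed by -0.12 ± 0.09 (adjusted p = 0.296).

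MSL2 is the RING-finger subunit whose presence starts assembly in males. Its gene msl-2 (2L) was dim. Levels were 3.70 and 3.61 in act-Gal4 males, 3.85 and 3.91 in P males and 3.64 and 3.78 in P/act-Gal4 males. Levels in females were 2.93 and 3.44 with act-Gal4, 3.33 and 3.24 with P and 3.51 with both transgenes. The background level, taken as the 95th percentile of 6 Y-linked probesets on the 5 female arrays, was 3.09. Only the act-Gal4 female array at 2.93 was below it, and no female array reached a male one in level. Male arrays also had the higher array medians. By rank within its own array, the P/act-Gal4 female (percentile 44.86) was just above act-Gal4 male array 2 (44.79). Control females stayed below control males by rank too, at most 41.46. Control males were 0.53 ± 0.10 above control females, 1.45-fold (adjusted p = 0.000841). With both transgenes msl-2 changed by -0.06 ± 0.12 in males (adjusted p = 0.774) and 0.28 ± 0.16 in females (adjusted p = 0.276), neither of them called.

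MSL3 carries a chromodomain that binds methylated histone H3 on transcribed genes. The gene (3L) was read by a first probeset with a name ending in a_at and a second ending in _at, which went opposite ways in males. On the first the levels were 5.23 and 5.15 in act-Gal4 males, 4.997 and 4.95 in P males and 4.61 and 4.64 in P/act-Gal4 males. Female levels were 4.33 and 4.66, 4.50 and 4.45, and 4.36. Control males were above all other arrays, and P/act-Gal4 males lay within the range of the females, whose highest array reached 4.66. This probeset fell by 0.46 ± 0.10 with both transgenes in males (adjusted p = 0.00348), and control males were 0.60 ± 0.08 above control females, 1.51-fold (adjusted p = 5.41e-05).

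On the second probeset of msl-3 the levels were 5.03 and 4.995 in act-Gal4 males, 4.88 and 4.88 in P males and 5.21 and 5.53 in P/act-Gal4 males. Among females they were 5.11 and 5.06, 4.75 and 5.07, and 5.34. The 3 arrays with both transgenes were the 3 highest of the 11. The rise in males was 0.42 ± 0.11 (adjusted p = 0.0113), and it lost its call without the P/act-Gal4 male array at 5.53 (0.27, adjusted p = 0.198) or with act-Gal4 males as the only control (0.36, adjusted p = 0.0524). The female change of 0.34 ± 0.14 was not called (adjusted p = 0.126), and the control sexes differed by -0.05 ± 0.09 (adjusted p = 0.634).

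The difference between both msl-3 probesets on an array, first minus second, was computed after their levels had been seen. Its size on 1 array has no meaning of its own, and only its shifts between arrays are read. It was 0.06 to 0.20 in control males, with a mean of 0.13 ± 0.06 (SD, n = 4), and -0.60 and -0.89 in P/act-Gal4 males. In control females it was -0.25 to -0.78, with a mean of -0.51 ± 0.23 (SD, n = 4), and -0.98 in the P/act-Gal4 female. Control males stood apart from all other arrays. Because this difference was picked for the opposite movement already seen, no p-value is given for it. Which transcripts each probeset detects was not analysed here.

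**Figure D2:**
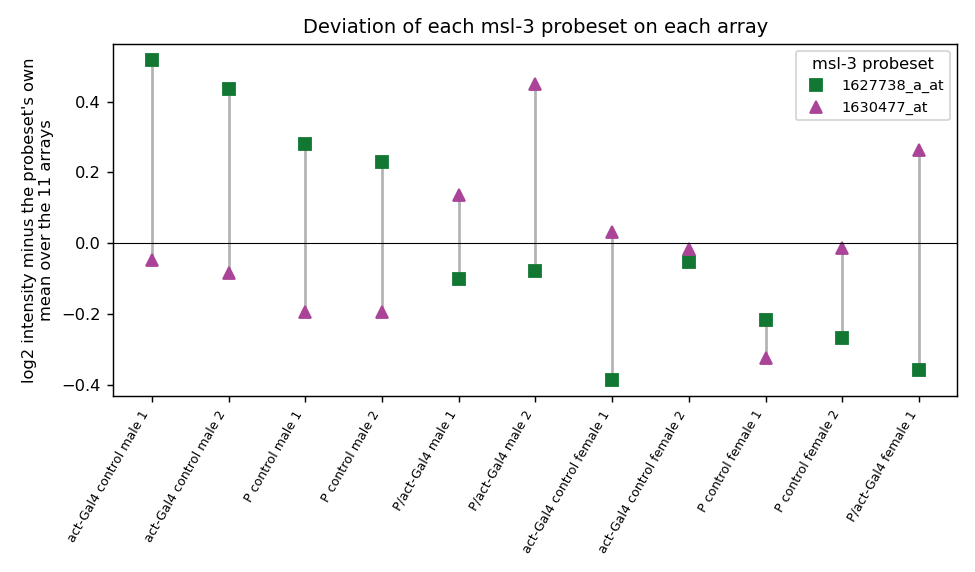
Deviation of both msl-3 probesets (squares and triangles) from their own mean over the 11 arrays, in log2 intensity, with a line joining the values of 1 array. The squares (a_at, the first probeset) are highest in the 4 control male arrays and the triangles (_at, the second) in the 3 arrays with both transgenes.

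MOF acetylates lysine 16 of histone H4 and also acts in the NSL complex, which works in both sexes. The gene mof (X) had levels of 4.51 and 4.68 in act-Gal4 males, 4.44 and 4.02 in P males and 4.35 and 4.17 in P/act-Gal4 males. Females had 4.22 and 4.23, 3.95 and 3.72, and 4.28. The P control arrays of each sex held the lowest value of that sex, and the sexes overlapped. Control males were 0.38 ± 0.10 above control females (adjusted p = 0.00682). With a further quantile normalization the difference was 0.16 (adjusted p = 0.186), and within act-Gal4 controls alone 0.37 (adjusted p = 0.0562). The change with both transgenes was -0.15 ± 0.12 in males (adjusted p = 0.421) and 0.25 ± 0.16 in females (adjusted p = 0.331).

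The helicase MLE remodels roX RNA for assembly. The gene mle (2R) had levels of 3.48 and 3.51 in act-Gal4 males, 3.82 and 3.9985 in P males and 3.94 and 4.18 in P/act-Gal4 males. On the female arrays they were 3.62 and 3.80, 4.09 and 3.99, and 3.95. In both sexes the act-Gal4 control was lowest, and P and P/act-Gal4 males overlapped. The male change of 0.36 ± 0.10 was called (adjusted p = 0.0150) but was 0.15 against the P control alone (adjusted p = 0.378), and 0.24 without the P/act-Gal4 male array at 4.18 (adjusted p = 0.217). The act-Gal4 control was itself 0.41 below the P control in males (log2 change -0.41 ± 0.11, adjusted p = 0.0237). In females mle changed by 0.08 ± 0.12 (adjusted p = 0.740).

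CLAMP is a zinc-finger protein that binds GA-rich repeats and helps bring the MSL complex to the X. The gene Clamp (2L) had levels of 6.9998 and 7.12 in act-Gal4 males, 6.72 and 6.68 in P males and 6.51 and 6.71 in P/act-Gal4 males. Female arrays gave 6.63 and 6.61, 6.58 and 6.50, and 6.65. The act-Gal4 males stood above all other arrays, and P and P/act-Gal4 males overlapped. The fall in males of 0.27 (log2 change -0.27 ± 0.08, adjusted p = 0.0294) shrank to -0.10 against the P control alone (adjusted p = 0.543). It also lost its call without act-Gal4 male array 2 (-0.24), P male array 1 (-0.26) or P/act-Gal4 male array 1 (-0.17, adjusted p = 0.298). The 2 male controls differed from each other by 0.36 ± 0.10 (adjusted p = 0.0250). Control males were 0.30 ± 0.07 above control females (adjusted p = 0.00307), and 0.16 above them within the P controls alone (adjusted p = 0.195).

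JIL-1 is a kinase that phosphorylates histone H3 at serine 10, is enriched on the male X, and counteracts the spread of heterochromatin. The gene JIL-1 (3L) had levels of 4.42 and 4.58 in act-Gal4 males, 4.37 and 4.28 in P males and 5.37 and 5.57 in P/act-Gal4 males. Female values were 4.95 and 4.70, 4.06 and 4.66, and 5.24. The 3 arrays with both transgenes were above all 8 control arrays. In males JIL-1 rose by 1.06 ± 0.15, 2.08-fold (adjusted p = 0.000237). The call held under every alternative that was run, including each control alone (0.97 and 1.14) and each array left out (0.96 to 1.15). In females JIL-1 rose by 0.64 ± 0.19, 1.56-fold (adjusted p = 0.0395), on 1 array, and by 0.41 against act-Gal4 females only, which was not called (adjusted p = 0.248). The change in males exceeded that in females by 0.41 ± 0.24, which was not called (adjusted p = 0.342), and the control sexes differed by -0.18 ± 0.12 (adjusted p = 0.204).

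Unr, an RNA-binding protein of the msl-2 repressor in females, was read by 1 probeset (3L). Its levels were 4.85 and 4.70 in act-Gal4 males, 4.75 and 5.06 in P males and 5.09 and 5.18 in P/act-Gal4 males. In females the levels were 4.85 and 4.89, 5.43 and 5.06, and 4.996. P/act-Gal4 males were above all control males, by a narrow margin, while the P/act-Gal4 female lay between both female controls. The change was 0.29 ± 0.12 in males (adjusted p = 0.0825) and -0.06 ± 0.15 in females (adjusted p = 0.820). The male change was called when only male arrays were fitted (adjusted p = 0.0365), and without P female array 1 or 2 or P male array 2. Control sexes differed by -0.22 ± 0.10 (adjusted p = 0.0609).

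Trf2 encodes a relative of the TATA-binding protein that starts transcription at TATA-less promoters. It is not a subunit of the MSL complex. The gene (X) had levels of 5.44 and 5.53 in act-Gal4 males, 6.09 and 6.03 in P males and 5.68 and 5.77 in P/act-Gal4 males. The females had 4.77 and 4.46, 4.99 and 5.45, and 5.47. P/act-Gal4 males lay between both controls, and the P/act-Gal4 female was above all control females by a narrow margin. Control males were 0.86 ± 0.10 above control females, 1.81-fold (adjusted p = 2.81e-05), with a P female array at 5.45 reaching the lowest male array at 5.44. The male change with both transgenes was -0.05 ± 0.13 (adjusted p = 0.827). The female rise was 0.55 ± 0.16, 1.47-fold (adjusted p = 0.0400), and 0.25 against the P control alone (adjusted p = 0.371).

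**Figure D3:**
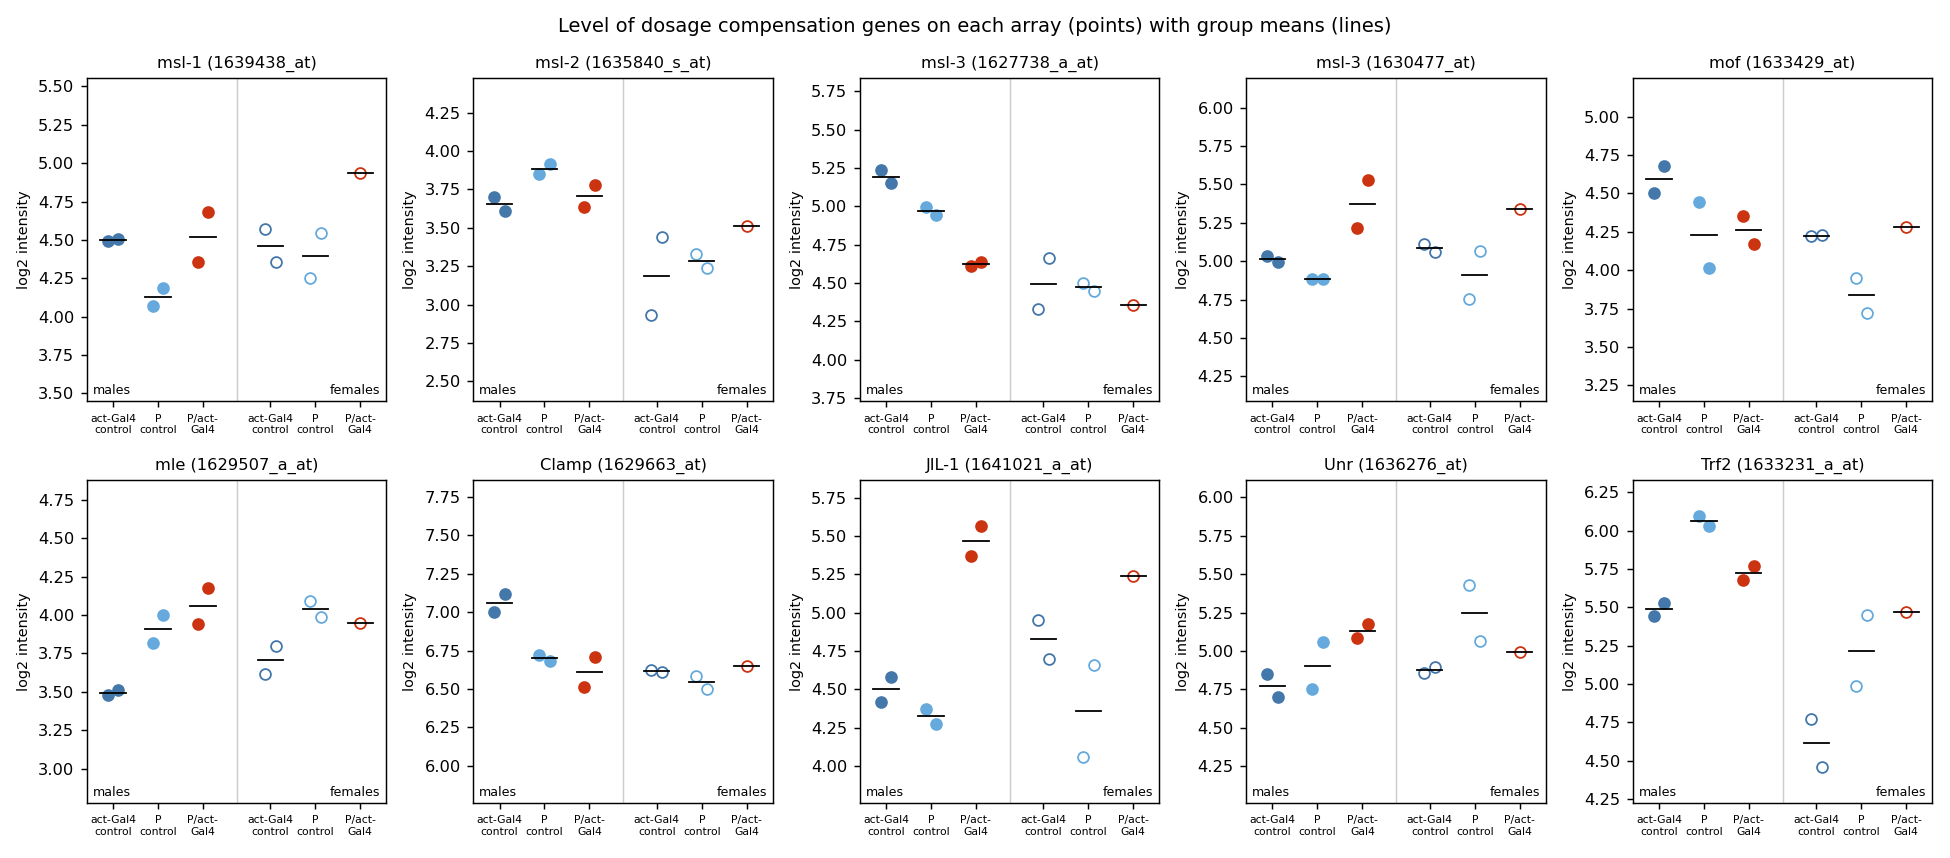
Log2 intensity of each probeset on each of the 11 arrays (points, filled for males and open for females) with the group mean (line). Each panel has its own axis of the same span. JIL-1 shows P/act-Gal4 arrays above the controls in both sexes, and Trf2 shows the P control above the act-Gal4 control in both sexes.

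The female calls were not stable. JIL-1 and Trf2 lost theirs in 7 of the 10 fits that left out 1 array, and msl-1 in 6 of 10. For JIL-1 and Trf2 these were the fits without any 1 of the 6 male arrays or without act-Gal4 female array 2. For msl-1 they were the fits without any 1 of the 4 control male arrays, act-Gal4 female array 2 or P female array 1. Leaving out a male array kept the size of the change and lowered the residual degrees of freedom from 5 to 4. Over all fits that left out 1 array the adjusted p reached at most 0.0776. With a further quantile normalization the adjusted p was 0.0712 for JIL-1, 0.0576 for Trf2 and 0.0667 for msl-1. The eIF4a 3′ minus 5′ probeset difference, a sign of RNA quality, was 3.69 and 3.47 in P/act-Gal4 males and females against 3.95 to 4.97 in the control groups. The same difference for GAPDH was 3.31 and 2.90 against 3.09 to 4.59, and for actin 2.95 and 2.95 against 2.96 to 4.09. Their part in these changes was not tested.

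Between the sexes the effect of both transgenes was called different in 0 of the 10 probesets with limma, where 11.9% of all tested probesets were. An unadjusted p under 0.05 was reached by 2 of them, and limma's trend and robust options called 1, Trf2, whose male change was below its female change by 0.60 (log2 difference -0.60 ± 0.21, adjusted p = 0.0865 without these options). The median of these differences was -0.32 over the 10 probesets and 0.02 over all tested. Between P/act-Gal4 males and the P/act-Gal4 female, 0 of the 10 were called with limma, where 25.8% of all tested probesets were, and 1 had an unadjusted p under 0.05. That one was msl-1, at -0.42 ± 0.16 (adjusted p = 0.0862), and it was called with arrays shifted to a common median (-0.62) and without P/act-Gal4 male array 2 (-0.58). The 3 genes with a called control sex difference of over 0.5, Trf2, msl-3 on its first probeset and msl-2, differed by 0.25 ± 0.18, 0.27 ± 0.13 and 0.19 ± 0.17 here. This comparison rests on 2 arrays against 1.

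Differences between both control genotypes were of similar size to several changes above. In males 3 of the 10 probesets were called between act-Gal4 and P controls (18.4% of all tested were), namely Trf2 at -0.58 ± 0.15, mle at -0.41 and Clamp at 0.36. In females 1 of the 10 was called (16.6% of all tested were), Trf2 at -0.60 ± 0.15 (adjusted p = 0.0157). These comparisons and those of P/act-Gal4 share the same control arrays.

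Ordered by group mean, few neighbouring groups of a gene differed by more than the 95% margin of their difference, which was not adjusted for the number of steps. For the first msl-3 probeset the order ran from act-Gal4 males through P males to P/act-Gal4 males, and only the step from P to P/act-Gal4 males exceeded it, at 0.35 against 0.24. For Clamp the step from act-Gal4 males to P males did. For Trf2 the steps from P to P/act-Gal4 males and from P to act-Gal4 females did, for mof the step from act-Gal4 to P females, and for msl-1 the step from the P/act-Gal4 female to P/act-Gal4 males. For mle, msl-2, msl-3 on its second probeset, Unr and JIL-1 no neighbours in the order differed beyond that margin. For JIL-1, groups of the other sex stood between P/act-Gal4 males and control males. Its called male change was therefore not among these steps.

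Over the 11 arrays, the single-gene probeset most like each gene by Pearson r was CG1136 for JIL-1 (r = 0.975), Dlg5 for msl-3 on its second probeset (0.962), gus for msl-1 (0.957), Kdm4A for Trf2 (0.954) and Ublcp1 for Clamp (0.953). For the rest these were cwo for mle (0.941), eIF4E1 for mof (0.937), Chd3 for msl-2 (0.931) and CG30053 for Unr (0.909), the last with a mean level of 2.53, below background. Each is the highest coefficient among all single-gene probesets outside the 9 genes, over arrays that share sex and genotype, and describe likeness only.

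Other genes of the pathway were followed in 4 lists. Together with roX1 and roX2, which had no single-gene probeset, 30 genes were listed, and 24 of them were measured. The lists cover control of msl-2, the NSL complex, chromatin around the male X, and relatives and partners of Trf2. In P/act-Gal4 males 2 of the 24 were called higher and 3 lower, 20.8% of the lists against 29.2% of all tested probesets. Iswi, the ATPase of nucleosome-remodelling complexes that affects the shape of the male X, fell by 0.71 ± 0.10 (adjusted p = 0.000271), from a mean of 7.43 in controls to 6.72. The splicing factor gene tra2 fell by 0.41 ± 0.10, with overlapping arrays, and Dref, a promoter-binding partner of Trf2, fell by 0.38 ± 0.09. Both stood closer to the P control than to the act-Gal4 control. The mean of tra2 was 5.80 in P/act-Gal4 males, 5.95 in P males and 6.46 in act-Gal4 males. For Dref these means were 4.55, 4.67 and 5.19. Pof, whose protein binds the fourth chromosome, rose by 0.42 ± 0.09. For pAbp, a poly(A)-binding protein of the msl-2 repressor, the change was 0.35 ± 0.09 with overlapping arrays. Its mean of 10.72 in P/act-Gal4 males lay between 9.90 in act-Gal4 males and 10.85 in P males. Of the 5 measured NSL genes 0 were called in males or in females with limma, where 29.2% and 15.9% of all tested probesets were, which is too few genes to set apart from those shares.

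In the P/act-Gal4 female 2 of the 24 were called higher, tra2 by 0.47 ± 0.13 and Pof by 0.41 ± 0.12, and 1 lower, Set2, a histone H3 methyltransferase, by -0.41 ± 0.13 (adjusted p = 0.0476). These are 12.5% of the 24, against 15.9% of all tested probesets. The effect in males was called below that in females for 3 of the 24 genes, 12.5% against 11.9% of all tested probesets, tra2 at -0.87 ± 0.16, Chro, a chromodomain protein of polytene interbands, at -0.61 ± 0.17 and Dref at -0.50 ± 0.14, and above it for 0.

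Between control males and females 6 of the 24 were called higher and 4 lower in males, 41.7% of the lists against 60.7% of all tested probesets. Pof stood at 8.35 in control males and 3.88 in control females, a difference of 4.47 ± 0.08 (22.2-fold, adjusted p = 5.99e-13). In males tra2 was higher by 0.72, Iswi by 0.68, Trf by 0.67, E(bx) by 0.26 and dgt1 by 0.17. Trf had a mean of 2.90 in females, below background. The sex determination gene tra was lower by -0.46, Tbp by -0.38, Su(var)3-7 by -0.37 and nsl1 by -0.28.

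Sxl, the female-specific splicing and translation regulator that blocks msl-2, was read by 3 probesets. A dim one had means of 2.22 in control males and 2.88 in control females, both below background. This difference of -0.65 was called (adjusted p = 4.23e-06). The P/act-Gal4 female array, at 3.18, was above background. Another was 0.24 higher in males (adjusted p = 0.0448), and the brightest differed by 0.07 (adjusted p = 0.362). On the brightest probeset Sxl was lower in act-Gal4 than in P controls, by -0.84 in males and -0.54 in females, as was pAbp, by -0.94 and -0.73.

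**Figure D4:**
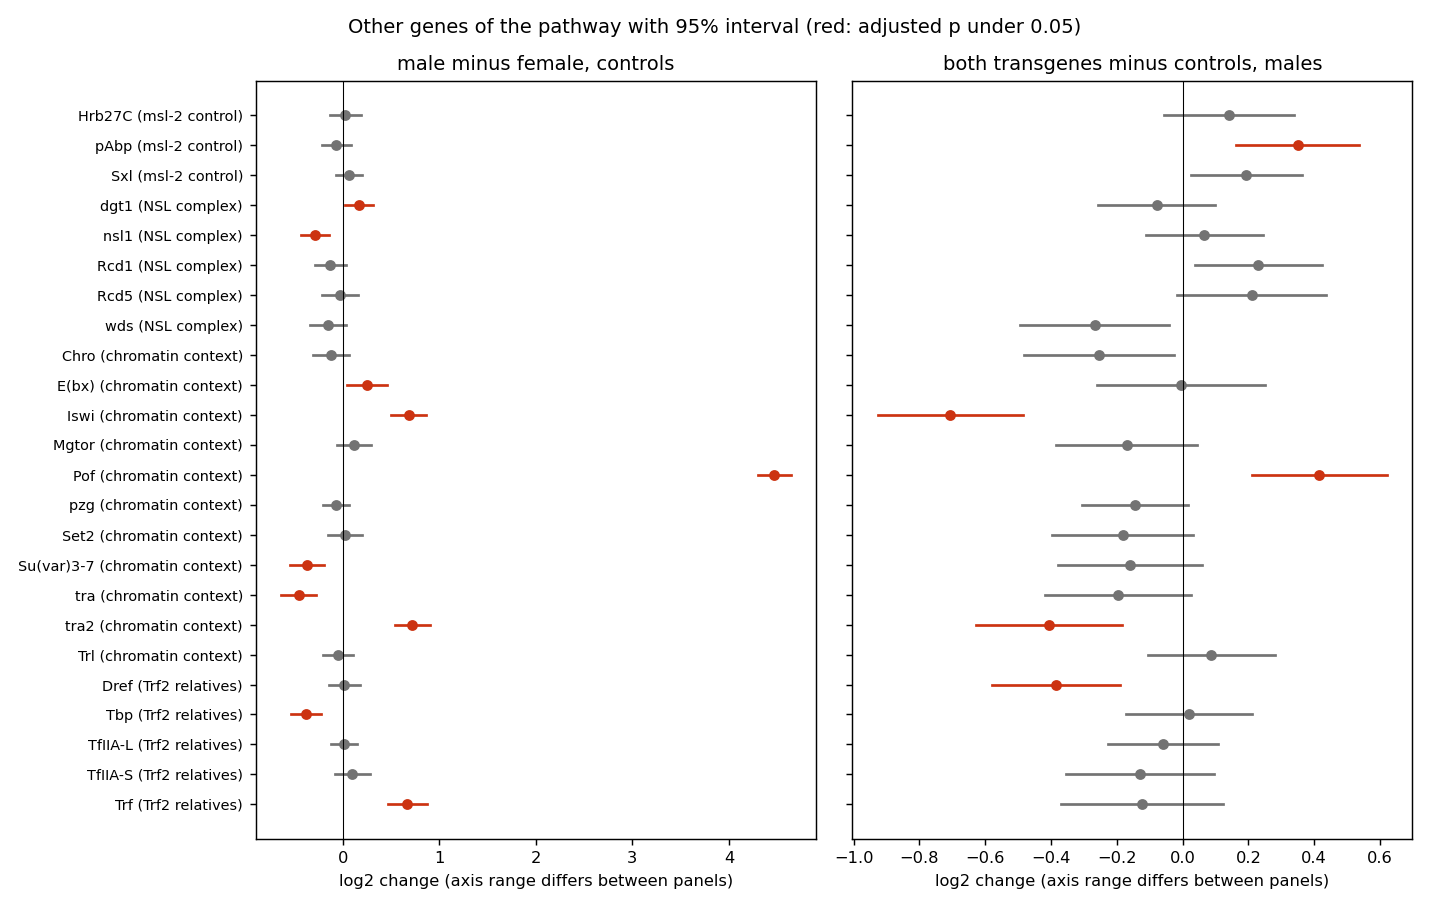
Log2 change with its 95% interval for 24 other genes of the pathway, between control sexes (left) and between P/act-Gal4 and control males (right), red where the adjusted p was under 0.05. The axis ranges differ. Pof lies at 4.47 on the left, and Iswi is lowest on the right at -0.71.

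The X chromosome as a whole, the target of the machinery, gave a last readout, chosen after earlier results were seen. Between control males and females the median difference of 1873 X-linked genes was -0.22, with 305 called higher and 991 lower in males, against medians of -0.09 to -0.14 on the autosomal arms and the fourth chromosome. For genes brighter than the array medians it was -0.25 on the X, -0.20 on the fourth chromosome and -0.06 to -0.11 on the large autosomal arms. In P/act-Gal4 against control males the X-linked median was -0.015, within the -0.0051 to -0.019 of the large autosomal arms. The 65 genes of the fourth chromosome had a median of 0.23, with 32 called higher and 2 lower, where 16.3% of all tested probesets were called higher and 12.9% lower. In the P/act-Gal4 female against control females the median of these 65 genes was 0.10, on 1 array. Among genes brighter than the array medians (1223 X-linked and 6478 autosomal), the X-linked minus autosomal median was -0.23 to -0.14 on control male arrays, -0.16 and -0.12 on P/act-Gal4 male arrays and 0.09 to 0.13 on the 5 female arrays. All males were below all females, and 1 of the 2 P/act-Gal4 male arrays lay above the control male range. These differences were not tested. The testis markers given above were higher in males than in females. Among males the act-Gal4 controls had the lowest testis sums (2204 to 2217) and the lowest X-linked minus autosomal medians (-0.23 and -0.20). How the markers relate to this readout was not tested.

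**Figure D5:**
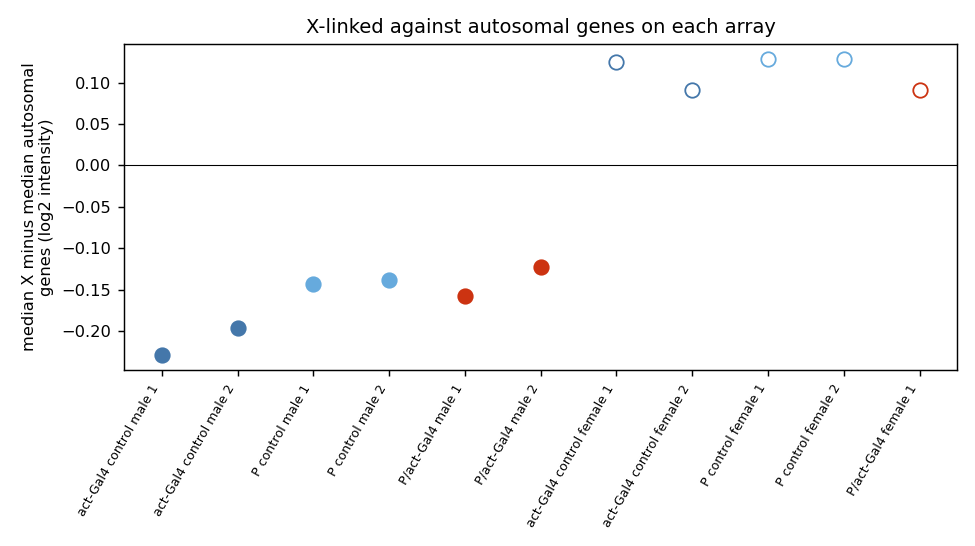
Median log2 intensity of X-linked genes minus that of autosomal genes on each array (points, filled for males and open for females). The 6 male arrays lie between -0.23 and -0.12 and the 5 female arrays between 0.09 and 0.13.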

How the data were processed

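Total RNA of whole larvae was measured on 11 arrays. The authors normalized and summarized the probe intensity values with RMA, per the submitters' processing notes; its version and options are not given in the sources used here. The deposited intensity values are on a linear scale, and log2 was taken with no pseudocount or filter. Of 18952 probesets, 183 control probesets were left out. Array titles gave the 6 groups; replicate numbers only name arrays, and strain and description labels that conflict with them were not used. The design text mentions 2 independent populations, which could not be assigned to arrays, so p-values measure the spread between arrays. The number of arrays limits the precision.

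The 6 group means of each probeset were estimated jointly from the 11 arrays by limma version 3.58.1 under R version 4.3.3, using lmFit, then eBayes (5 residual degrees of freedom), with Benjamini-Hochberg adjustment over 18769 probesets. P/act-Gal4 females, with 1 array, borrow the spread of the remaining groups. Standard errors are from this fit. Figures were drawn with matplotlib 3.10.9. The script was tested on simulated data. Chromosome arms and current symbols came from the RefSeq gene table. Each of the 24 measured pathway genes was followed through its brightest probeset. Those called for the effect of both transgenes, for its sex difference or between control sexes were named. The rule was at most 4 per list and comparison, but between control sexes all 6 called chromatin genes were named. Members, lists and this rule were chosen with earlier results of these data known. Alternatives were another normalization, a common array median, trend and robust options, another threshold, bright probesets only, other controls, male arrays alone and each array left out.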

Additional observations from a re-analysis of the deposited data

Results flagged for a closer look

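Among the 9 genes, HP1 and the 24 other pathway genes, 4 had an effect of both transgenes that was called different between the sexes by the interaction term in limma. Over all tested probesets 2232 were, 11.9%. Of the 24 pathway genes 3 were, 12.5%, which is near that share, and of the 10 probesets of the 9 genes 0 were. HP1 had a male effect below the female one by 0.53 on the log2 scale (difference -0.53, adjusted p = 0.0467), with a change of -0.53 in males and -0.0017 in females. For tra2 the difference was -0.87 (adjusted p = 0.00536), from -0.41 in males and 0.47 in females. For Chro it was -0.61 (adjusted p = 0.0382) and for Dref -0.50 (adjusted p = 0.0450). Each rests on 1 P/act-Gal4 female array. No group had enough arrays for a search for outlying ones.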

How the results depend on the processing

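Of the calls between P/act-Gal4 and control males, JIL-1 and the first msl-3 probeset held under every alternative run, and of those between control sexes Trf2, the first msl-3 probeset and msl-2 did (msl-2 was not among the bright probesets). In males 3 of 10 probesets were called against the P control alone (4827 of all probesets, from 5482) or with the controls pooled (2447). In females 0 were called with quantile normalization or pooled controls (445 of all probesets, from 2982) and 1 against the act-Gal4 control. For the difference of effects 1 was called at an adjusted p under 0.1 or with trend and robust options, and 207 of all probesets with pooled controls, from 2232. Between control sexes 9 were called with quantile normalization or a common median, and 6574 of 9384 bright probesets. Between P/act-Gal4 sexes 1 was called at 0.1, with quantile normalization or with a common median, which called 10430 of all probesets, from 4834. Between female controls 5 were called at 0.1 (4098 of all probesets, from 3110), 3 with quantile normalization (3263) and 2 with trend and robust options (3735). The cause was not tested.

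Leaving out 1 array gave 3 to 6 calls among the 10 in males (3392 to 5905 of all), 0 to 4 in females (2613 to 3503), 0 to 1 for the difference of effects (1386 to 2594), 5 to 6 between control sexes (9607 to 11398), 0 to 1 between P/act-Gal4 sexes (3564 to 5352), 0 to 4 between male controls (1901 to 3842) and 0 to 2 between female controls (2180 to 3110).

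The sign turned only for changes that were not called. In males these were mof against P alone (0.0299) and, against act-Gal4 alone, Trf2 (0.24) and msl-2 (0.0521). In females they were Clamp with quantile normalization (-0.0128), mle against P alone (-0.0903) and Unr against act-Gal4 alone (0.12). Between act-Gal4 control sexes alone it was msl-1 (0.0381). Between P/act-Gal4 sexes, quantile normalization turned mle (-0.10), the second msl-3 probeset (-0.11) and Unr (-0.0494), and a common median turned mle (-0.0871), the second msl-3 probeset (-0.17), msl-2 (-0.0048) and Unr (-0.0612). With 1 array left out, uncalled changes that turned ranged over -0.131 to 0.00945 for msl-2 in males, -0.155 to 0.0262 for Unr in females and -0.0791 to 0.235 for the difference of effects on the second msl-3 probeset. Between control sexes that probeset ranged over -0.127 to 0.0289. Between P/act-Gal4 sexes the ranges were -0.142 to 0.0551 for Clamp, -0.00604 to 0.227 for mle, -0.128 to 0.186 for the second msl-3 probeset and -0.112 to 0.0695 for mof. Between male controls Unr ranged over -0.284 to 0.0229. Between female controls the ranges were -0.352 to 0.156 for msl-2, -0.0826 to 0.212 for msl-1 and -0.144 to 0.188 for the first msl-3 probeset. No paired analysis was possible because the labels give no replicate numbers shared between groups.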
